A study of Mus musculus with 2 samples.

Results

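The region described is the 1 Mb stretch of mouse chromosome 11 that holds Sept9 (Septin 9), at bases 117000001 to 118000000 of the mm9 build. Its members are the 5-hydroxymethylcytosine (5hmC) peaks with their midpoint in that stretch, 128 of 66883 peaks in all. Of these, 109 came from the passage 0 list of 60157 peaks and 19 from the passage 5 list of 6726. The gene was taken to lie at about bases 117061000 to 117224000, a span of 163 kb that held 42 passage 0 and 8 passage 5 peaks. The stretch was chosen by its high number of passage 5 peaks and by the score of a passage 5 peak without a passage 0 peak, so peak numbers and scores are given as a description and carry no test.

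Both groups were mouse embryonic fibroblasts (MEFs) of the C57BL/6 strain, taken from embryos at day 13.5 and grown in serum-containing medium. One library came from cells at passage 0 and one from cells at passage 5, and the labels name no genetic change or drug in either. The labels do not say how many embryos were pooled or what sex they were. Fragments carrying 5hmC were captured by GLIB, in which the hydroxymethyl group is given a glucose that is then tagged with biotin, and were sequenced. The assay gives enriched stretches and not single modified bases. Replicates are lacking at both passages, so no spread between samples can be given, and the sequencing depth is unknown.

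Septin 9 belongs to the septins, GTP-binding proteins that assemble into filaments and act as a further part of the cytoskeleton. It associates with actin fibres and with microtubules, and in fibroblasts septins lie along actin stress fibres. The gene is long and is transcribed from several promoters into different isoforms, and methylation of the human SEPT9 promoter in blood DNA is a known marker of colorectal cancer. TET enzymes make 5hmC by oxidising 5-methylcytosine, mostly where C is followed by G, and the mark is known to gather in the bodies of transcribed genes and at enhancers.

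The start of the gene carried no peak at either passage. The stretch free of peaks in both lists ran from base 117037366 to base 117066741, which is 29.4 kb, and reached 23.6 kb before and 5.74 kb beyond the gene's start as taken here. The sequence just before the first start of Septin9 in RefSeq is printed because it lies at this end of the gene and shows how rich in the target dinucleotide it is. It comes from the plus strand of chr11:117199411-117199660 in GRCm38.p6, a later build whose positions cannot be compared with the mm9 peaks, and ends at the base before the start. Capitals mark each CG.
Septin9 first promoter: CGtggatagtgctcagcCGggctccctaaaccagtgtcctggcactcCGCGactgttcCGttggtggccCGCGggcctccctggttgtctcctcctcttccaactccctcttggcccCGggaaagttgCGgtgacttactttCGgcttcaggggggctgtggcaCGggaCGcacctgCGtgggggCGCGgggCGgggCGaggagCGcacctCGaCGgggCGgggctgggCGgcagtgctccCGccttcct

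These 250 bases hold 23 CG, a motif that reads the same on both strands, and 69.6% of them are G or C. At least as many CG were found in 13.3% of the 32851 promoters of the same length in the RefSeq table, whose median was 6, and at least 1 in 92.1%. RefSeq lists 4 promoters for Septin9. In order along the gene, the others hold 18, 3 and 14 CG. Where these inner starts lie relative to the peaks is not analysed here, since no mm9 annotation was used.

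At passage 0, 5hmC peaks lay close together in the body of Septin 9. The 42 peaks amounted to 25.8 per 100 kb, against 8.0 per 100 kb in the rest of the 1 Mb window and 2.51 on chromosomes 1 to 19. Their summed width was 54052 bases, which equals 33.2% of the length of the gene. In the rest of the window it was 60563 bases or 7.24%, and on the autosomes 2.37%. The median gap between neighbouring peaks was 1697 bases inside the gene (41 gaps). After peaks in the rest of the window it was 6781.5 bases (66 gaps), and on the autosomes 8615 bases. All 42 peaks fell into 5 runs whose gaps were no longer than 5 kb. The longest held 20 peaks over 47.9 kb, between bases 117109667 and 117157606, and 14 of 11561 such runs in the whole list had at least as many. A second run of 12 peaks covered 56.5% of the 38.1 kb between bases 117162646 and 117200724.

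**Figure D1:**
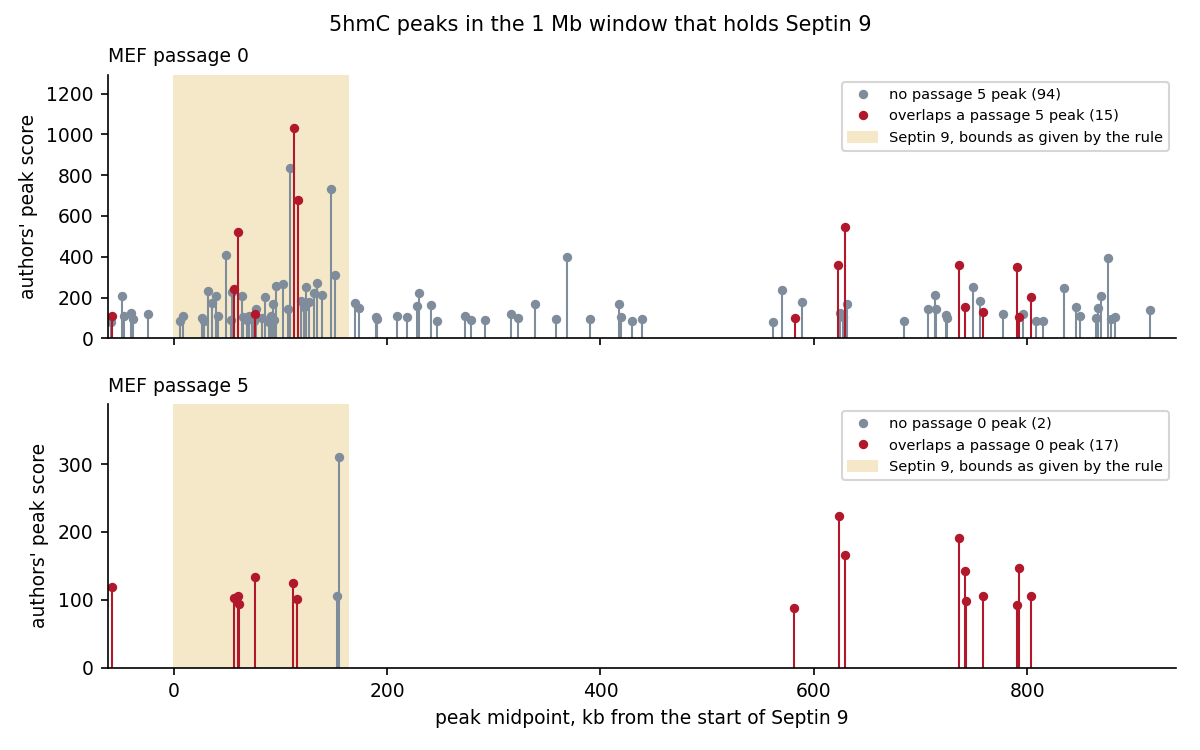
Each point is a 5hmC peak of the 1 Mb window, placed by its midpoint in kb from the start of Septin 9 (x) and by the authors' score (y, linear, with a separate scale for each passage). Red marks peaks that overlap a peak of the other list, grey those that do not, and the band is the gene. The 42 passage 0 peaks inside the gene stand closer together than the 67 outside it, and the passage 5 list is empty from the end of the gene to 582 kb from its start.

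The strongest passage 0 signal lay in the part of the gene away from its start. The gene is read in the direction of rising coordinates, as its RefSeq promoters are on the plus strand. The gene was cut at its midpoint into a part near the start and a part near the end. Both held 21 passage 0 peaks, but the part near the end held 63.0% of the peak bases (34046 against 20006). Scores are those the authors gave, and they are compared here only within 1 list. The highest score in the gene, 1033, belonged to a peak of 4227 bases at 117171585 to 117175811, which ranked 70th in the whole passage 0 list. The next highest, 835, was the peak directly before it, at bases 117168701 to 117171563, with a gap of 21 bases. The peak directly after it, at bases 117175955 to 117178322, scored 678 and was 143 bases away. These 3 peaks together formed a nearly unbroken block of 9.62 kb. Of the 5 highest scores in the gene, the other two were 733 at bases 117206453 to 117210520, a peak of 4068 bases, and 521 at bases 117120575 to 117122535, a peak of 1961 bases. At the other extreme, the first 16.3 kb of the gene held 2 peaks with scores of 85.9 and 112. The median score of the 42 peaks was 177 (range 81.3 to 1033) and their median width 1005 bases. In the whole passage 0 list these medians were 129 and 850 bases.

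At passage 5 only 8 peaks were called in Septin 9, and they covered 3.04% of it. The passage 0 list thus held 5.25 times as many peaks in the gene (95% exact counting interval 2.43 to 12.9). In the rest of the window, with 67 and 11 peaks, the ratio was 6.09 (3.20 to 12.8). The ratio on the autosomes was 8.97, and since the window was chosen for its passage 5 peaks, nothing is read from the difference. In summed peak width the ratios were 10.9 in the gene, 9.31 in the rest of the window and 14.7 on the autosomes. These intervals reflect only the counting of peaks, taken as independent of each other. Fewer peaks through less 5hmC and fewer peaks through a shallower or less enriched library cannot be told apart, since each passage is 1 library.

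Of the 8 passage 5 peaks in the gene, 6 overlapped a passage 0 peak by 1 base or more, a share of 75% (34.9% to 96.8%), against 69.9% in the whole passage 5 list. With both lists limited to their upper 50% by score, which leaves fewer peaks to overlap, it was 1 of 3, or 33.3% (0.84% to 90.6%). The share of the whole list under this limit was not computed, so 33.3% has no background beside it. Each of the 6 lay wholly inside its passage 0 peak. In the whole list 77.6% of the shared passage 5 peaks did so. They fell in 2 groups along the gene. The first 4 lay in the longest run, between 56.2 and 76.7 kb from the gene's start. The first of these, at bases 117117152 to 117117905, scored 102 at passage 5 and sat in a passage 0 peak that scored 240. The next 2, at bases 117120853 to 117121401 and 117121857 to 117122382, scored 105 and 93.6 and sat in the same passage 0 peak, the one that scored 521. The last of the 4, at bases 117137291 to 117137668, scored 134 and sat in a weak passage 0 peak of 121 at bases 117136994 to 117137762.

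The other two shared peaks lay in the block of strong passage 0 peaks. One, at bases 117172474 to 117173101, scored 124 and took up 14.9% of the 4227 bases of the highest passage 0 peak. The other, at bases 117176355 to 117176946, scored 101 and took up 25% of the 2368 bases of the passage 0 peak that scored 678. In this block 3 passage 0 peaks amounted to 9458 bases, and the 2 passage 5 peaks to 1220 bases, or 12.9% of that. The 6 shared peaks thus had scores of 93.6 to 134 in a list whose median was 117, including those at the strongest passage 0 site of the gene.

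**Figure D2:**
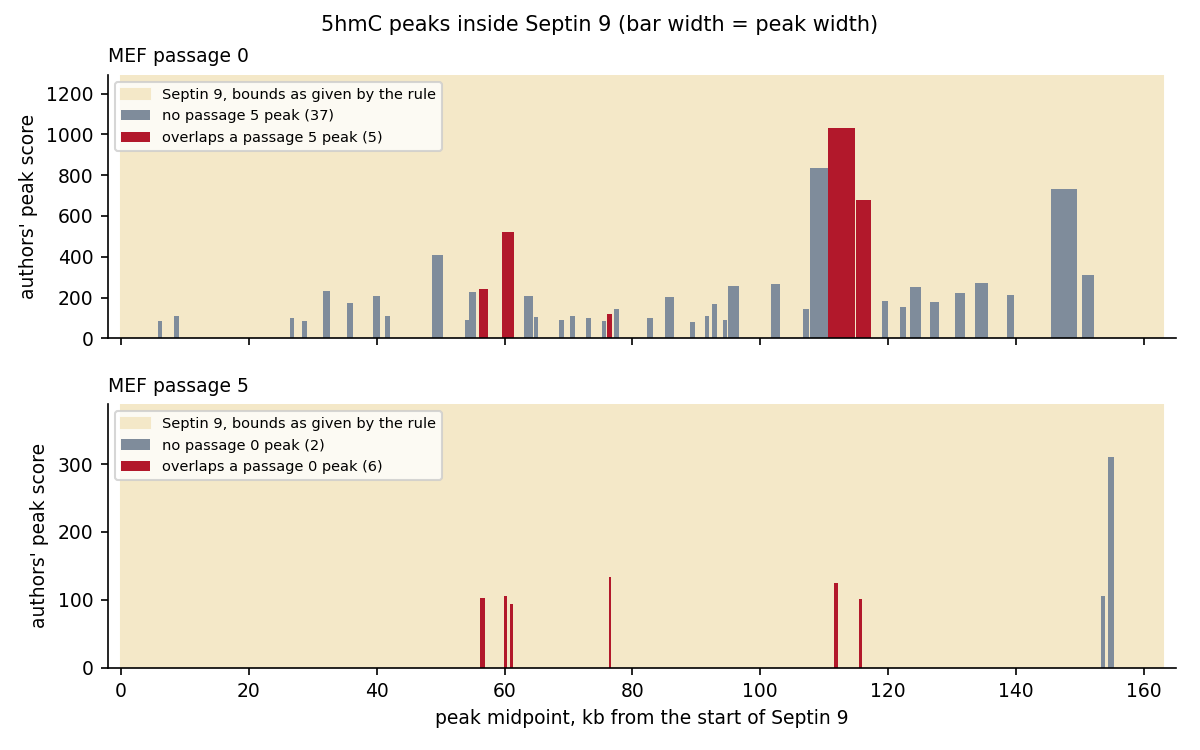
Peaks inside Septin 9, drawn as bars as wide as the peak, along the distance in kb from the start of the gene (x) and with the authors' score as height (y, from 0, with a separate scale for each passage). Red bars overlap a peak of the other list and grey bars do not. The tallest passage 5 bar, 311, stands beyond the last passage 0 peak, and the 6 red passage 5 bars lie between 93.6 and 134.

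The strongest passage 5 peak of the gene had no passage 0 peak. It lay at bases 117215397 to 117216374, 978 bases wide, with a score of 311 that ranked 61st in the passage 5 list and 4th among its 2023 peaks without a passage 0 peak. A second such peak, at bases 117214272 to 117214820 with a score of 105, lay 576 bases before it. The stretch was chosen by the score of a peak of this kind, so the high rank restates the choice. The pair ended 7.63 kb before the end of the gene as taken here. The last passage 0 peak of the gene, at bases 117211374 to 117213126 with a score of 310, ended 1145 bases before the first of the pair and had no passage 5 peak. The next passage 0 peak began only at base 117230308, beyond the gene. So the last 2 passage 0 peaks of the gene, with 5821 bases and scores of 733 and 310, had no passage 5 peak, and the 2 passage 5 peaks just beyond them had no passage 0 peak. A site outside a list has no called peak there, which does not show that it lacks 5hmC.

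Peaks called only at passage 5 made up 2 of 8 in the gene, or 25% (3.19% to 65.1%), against 30.1% of the whole passage 5 list. In the rest of the window they made up 0 of 11, with an exact upper limit of 28.5% (27.3% if the limit is set at 3 counts of 11). The stretch was chosen by its passage 5 number and the score of such a peak, so these shares only describe it. The numbers are too small to set the gene apart from its surroundings. Of the 2023 such peaks in the whole list, 30 had another one within 1 kb, which is 1.48%, and the pair in Septin 9 is among them. A passage 0 peak as near as 1145 bases was found for 14.5% of the 2023, and one as near as 2270 bases, the distance of the stronger peak, for 23.1%.

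Most passage 0 peaks of the gene were not called again. Of the 42, 5 had a passage 5 peak, or 11.9% (3.98% to 25.6%), against 7.63% in the whole passage 0 list. In the rest of the window 10 of 67 did, or 14.9% (7.40% to 25.7%). These shares depend on the passage 5 number for which the window was chosen, so they are given as a description. When only the upper 50% of each list by score was kept, 1 of 26 passage 0 peaks in the gene had a passage 5 peak, or 3.85% (0.10% to 19.6%). Such a limit leaves fewer peaks to overlap, and the share of the whole list under it was not computed. The 5 peaks that were called again had passage 0 scores of 121, 240, 521, 678 and 1033, and the 37 that were not ran from 81.3 to 835 with a median of 169. The 2 sets overlapped over most of their range. In the rest of the window the medians were 177 with and 117 without a passage 5 peak, and in the whole passage 0 list 214 and 125.

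Some strong passage 0 peaks of the gene had no passage 5 counterpart. The strongest was the peak that scored 835, whose nearest passage 5 peak lay 910 bases away inside the neighbouring peak. The next was the peak that scored 733, with the nearest passage 5 peak, itself without a passage 0 peak, 3.75 kb away. The third, at bases 117109667 to 117111366, scored 407 and was 5.79 kb from a passage 5 peak. Scores of at least 290 made up the top 10% of the passage 0 list, and 7 peaks of the gene reached this class, of which 3 had a passage 5 peak (42.9%, interval 9.90% to 81.6%). In the rest of the window 4 of 6 did (66.7%, 22.3% to 95.7%), and in the whole list 24.4%. Of the other 35 passage 0 peaks in the gene, 2 had one (5.71%, 0.70% to 19.2%), against 6 of 61 in the rest of the window (9.84%) and 5.76% in the lower 90% of the whole list. The shares in the gene and window again depend on the passage 5 number for which the window was chosen.

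**Figure D3:**
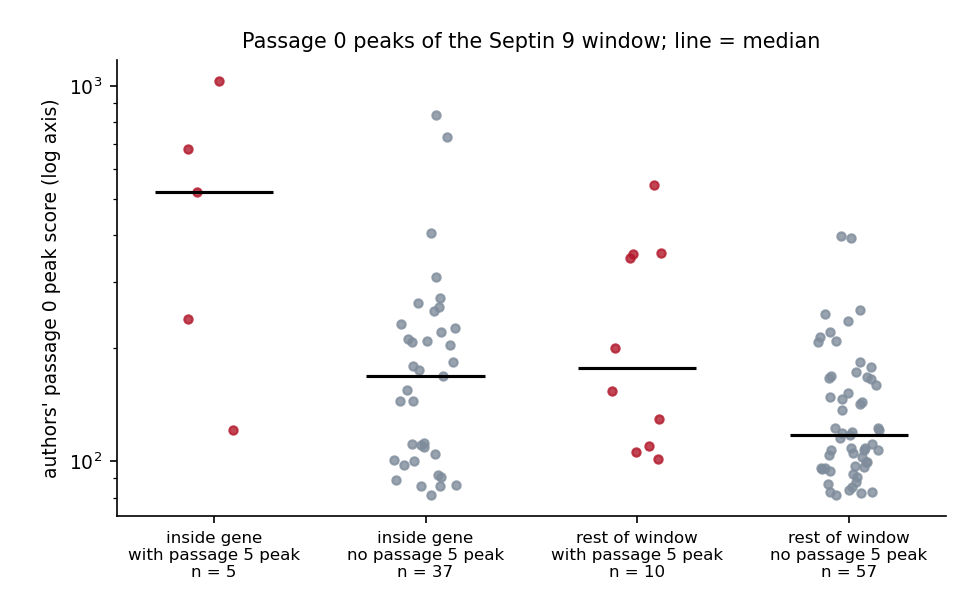
The authors' score of each passage 0 peak of the window (y, log axis), split by place and by whether a passage 5 peak overlaps it (x, spread sideways only for legibility), with a line at each median. Inside the gene the medians are 521 for 5 peaks and 169 for 37, and in the rest of the window 177 for 10 and 117 for 57.

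Outside the gene the passage 5 peaks were unevenly placed. One lay before it, at bases 117002828 to 117003206, with a score of 119 in a passage 0 peak of 110. From the last passage 5 peak inside the gene, no further one was called for 426 kb, up to base 117642503. This stretch held 25 passage 0 peaks with scores of 81.2 to 399 and a median of 107, below the median of the whole list. By the choice of the stretch, none of these had a passage 5 peak. In the whole passage 0 list only 7.63% of peaks had one. The other 10 passage 5 peaks lay between bases 117642504 and 117865276, and each overlapped a passage 0 peak. In RefSeq the protein-coding gene before Septin9 is Sec14l1 and the next after it is Tnrc6c, whose product takes part in gene silencing by microRNAs. Tmc6, Tmc8, Syngr2, Tk1 (thymidine kinase), Afmid and Birc5 (survivin) lie further on. Which of these genes holds which peak was not analysed here.

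The passage 5 peaks beyond the gene included stronger shared sites than the gene itself. The highest, at bases 117683939 to 117684673, scored 224 at passage 5 and sat in a passage 0 peak of 357. The next, at bases 117796975 to 117797624, scored 191 in a passage 0 peak of 360. The third, at bases 117689678 to 117690591, scored 165 and sat in the passage 0 peak with the highest score of the rest of the window, 544 at bases 117688955 to 117690825. Each of these 3 exceeded the 134 that was the highest score among the shared peaks of the gene. At bases 117852907 to 117853577 a passage 5 peak of 147 matched a passage 0 peak of 106, and at 117851128 to 117851664 one of 92.8 lay in a passage 0 peak of 348. A pair 31 bases apart, at bases 117802681 to 117803131 and 117803163 to 117803643, scored 142 and 97.3 on 1 passage 0 peak of 154, and the second shared only 20 bases with it. The remaining 3 were at bases 117642504 to 117643102, 117819221 to 117819759 and 117864728 to 117865276, with scores of 88.3, 106 and 105.

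Among the 6 passage 0 peaks of the window outside the gene in the top 10% by score, 4 had a passage 5 peak. In the whole list 24.4% of this class had one, and the share in the window depends on how the window was chosen. Of the 3 highest passage 0 scores outside the gene, 2 had no passage 5 peak. They were 399 at bases 117429285 to 117430667, in the stretch without passage 5 peaks and 212 kb from the nearest one, and 393 at bases 117935916 to 117937184, 70.6 kb from the nearest one. The borders of the window cut through a dense stretch on one side. The passage 0 peak just outside its start ended at base 116998847 with a score of 212, and the first inside began at 117001467 with a score of 82.5. At its other end the last peak inside scored 137 and the first outside, at base 118001538, scored 157. The nearest passage 5 peaks outside the window began at bases 116682397 and 118014210, with scores of 91.7 and 104.

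The window was dense at both passages when set beside the others. Of 2475 windows of 1 Mb on chromosomes 1 to 19, 24 had more than its 109 passage 0 peaks and 3 had more than its 19 passage 5 peaks. Of these 3, the windows at 3 to 4 Mb of chromosomes 11 and 9 held more passage 5 than passage 0 peaks. Their numbers were 46 against 36 and 20 against 14. The next windows below the one with Septin 9 held 18 passage 5 peaks. Among the 39 windows with at least 100 passage 0 peaks, the passage 5 number ran from 3 to 30 with a median of 10. Passage 5 peaks numbered 17.4% of the passage 0 peaks here, against a median of 8.91% and a range of 2.29% to 24% over these 39. When chromosomes 1 to 19 were cut into 15137 tiles as long as the gene, 5 tiles held at least 42 passage 0 peaks and 13 at least 8 passage 5 peaks. Only 1 tile reached both numbers, and it lay outside Septin 9. The tiles were cut from the start of each chromosome, so the gene was split between neighbouring tiles and none of them is the gene. The window was picked for its high passage 5 number, so these ranks restate that choice.

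**Figure D4:**
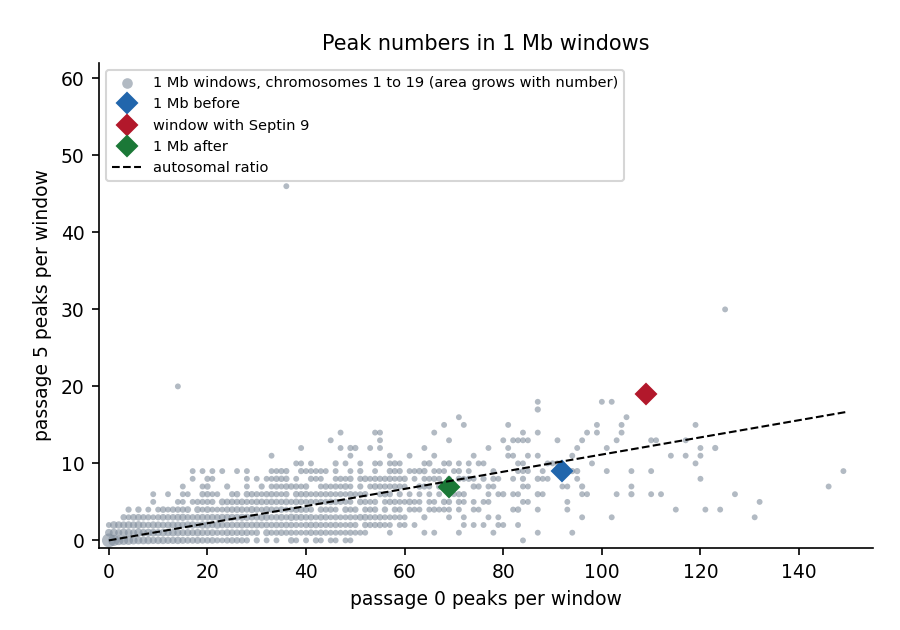
Passage 5 peaks (y) against passage 0 peaks (x) in 1 Mb windows of chromosomes 1 to 19, with the window that holds Septin 9 and the windows before and after it as diamonds and the autosomal ratio as a dashed line. The window with Septin 9 lies above the line with 109 and 19 peaks, and its neighbours lie close to it with 92 and 9 and with 69 and 7.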

How the data were processed

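The authors deposited 1 peak list per library, which gives the position, a serial name and a score of each peak. Per the submitters' processing notes, the build was mm9 and the software included MACS 1.4.1, Bowtie 0.12.7 and CASAVA 1.8. The sources used here do not give settings, threshold or any input control. As for the score, the authors' lists do not name it, and it was used only within 1 list. Starts were taken to count from 0, as in BED files, and are printed counted from 1.

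A peak belonged to the gene or window by its midpoint, and gene bounds are approximate. Peaks with at least 1 base in common were called shared. Shares and ratios carry 95% Clopper-Pearson intervals, with no p-value between passages. Named peaks are every passage 5 peak of the window, the passage 0 peaks under those in the gene, the 5 highest passage 0 scores in the gene and 3 in the rest, and the 3 highest in the gene without a passage 5 peak. The weakest peaks and window borders were added after their values were seen. The region, lists and rules were chosen with earlier results of these data known. Septin family genes were planned but not run, for lack of mm9 positions. Overlaps were checked against bedtools 2.31.1 and on simulated data. Python 3.11.15, numpy 2.4.6, pandas 2.3.3, scipy 1.17.1 and matplotlib 3.10.9 were used. Depth is unknown.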

Additional observations from a re-analysis of the deposited data

How the results depend on the processing

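Of 38 recomputed values for 6 results (the ratio of peak numbers and both shares of shared peaks, in the gene and in the rest of the window), 35 stayed within the exact interval of the reported value. The other 3 moved when only the upper 50% of each list by score was kept. Passage 5 peaks were then shared with passage 0 in 33.3% of cases in the gene (1 of 3) and 66.7% in the rest of the window (4 of 6), and passage 0 peaks in the gene were shared with passage 5 in 3.85% (1 of 26). This setting leaves fewer peaks to overlap by its construction, and the shares of the whole lists under it were not computed. The ratio of peak numbers in the gene ran from 4.5 with peaks within 1 kb merged to 8.67 in the upper 50%, where it rests on 3 passage 5 peaks. Extending the gene by 5 kb on both sides, or counting any base within its bounds, left every one of the 6 values as reported. This was fixed beforehand, since no peak of either list crossed the bounds or lay within 5 kb outside them. These unchanged values are counted among the 35. The intervals are wide, so staying within them is a weak statement. No paired analysis was possible because each passage has 1 library. The search in the other septin genes was not run.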

Other observations

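The windows on either side of the one with Septin 9 held 92 passage 0 and 9 passage 5 peaks before it and 69 and 7 after it. In the window before, 4 of the 9 passage 5 peaks had no passage 0 peak (44.4%, 13.7% to 78.8%). In the window after it was 0 of 7, with an exact upper limit of 41.0%. The share in the whole passage 5 list, 30.1%, lies within both intervals. A run of 17 passage 0 peaks with gaps of at most 5 kb, between bases 116962533 and 117003298, crossed the start of the Septin 9 window and held 1 passage 5 peak.

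In the window, 3 passage 5 peaks had both the score of 104.7 and the width of 549 bases: 1 of the retained peaks in the longest run of Septin 9, the weaker of the pair without a passage 0 peak, and the last one of the window. The whole passage 5 list held 13 peaks with this score, and all 13 were 549 bases wide. Of all passage 5 peaks, 34 had this width.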
